A study of Mus musculus with 16 samples.

Results

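The genes examined were 8 markers of minor epithelial cells of the mouse olfactory mucosa, of 19572 array features that carried a single gene symbol. Trpm5, Avil, Pou2f3, Chat and Sh2d7 mark tuft cells, also called Trpm5 microvillar cells, and Foxi1, Ascl3 and Cftr mark ionocytes. They were chosen by name, each had 1 feature, and each was measured on all 16 arrays. Clariom S arrays report 1 processed log2 signal per gene, so a difference of 1 unit is a doubling of signal.

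There were 4 groups of 4 arrays, namely the titled GFP- and the titled GFP+ fraction of odor-exposed mice and the same pair of fractions of vehicle mice. The animals were male and female C57BL/6 mice 7 to 12 weeks old, and all carried the S100a5-tauGFP reporter, in which a gene that responds to activity in olfactory sensory neurons (OSNs) directs a fluorescent protein. They spent 40 h singly in clean air, and from 26 h on received either a mixture of undecanal and bourgeonal, a pair of odorous aldehydes, or filtered air (vehicle), for 10 s every 20 min. Each array held RNA from 3 pooled mice, and cells of each pool were sorted by fluorescence into both fractions, so no array stands for 1 animal and tuft cells or ionocytes were not themselves sorted.

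Tuft cells are rare chemosensory epithelial cells with an apical brush of microvilli. They use the signalling cascade of sweet and bitter taste cells, make acetylcholine and lipid mediators, and depend on the transcription factor Pou2f3. Ionocytes are rare cells rich in ion channels and proton pumps, specified by the forkhead factor Foxi1, and are a main site of Cftr expression in airway epithelium. Both kinds belong to the microvillar cells of the olfactory epithelium and are distinct from the OSNs that the reporter marks.

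The fractions are named here by the sample titles, since the cell type field of the labels gives the opposite GFP status on 16 of 16 arrays. S100a5 itself was higher in the titled GFP- fraction, by 1.31 ± 0.20 log2 units in odor pools and 1.00 ± 0.20 in vehicle pools (SE, limma adjusted p = 1.6e-04 and 0.0019), which goes against the titles. If the cell type field is right, each fraction difference below reads as fluorescent minus non-fluorescent cells. Omp, the marker of mature OSNs, stood between 18.31 and 18.68 on the 16 arrays, so both fractions held neurons of the labelled tissue. All 13 measured leukocyte genes and all 11 neutrophil genes fell in titled GFP- arrays of both treatments (limma, adjusted p under 0.05). The mean of the leukocyte list ranged from 5.05 to 5.84 in odor and 5.23 to 5.55 in vehicle titled GFP- arrays, against 9.43 to 11.18 in odor and 9.92 to 11.60 in vehicle titled GFP+ arrays. Ptprc, the pan-leukocyte phosphatase CD45, was below background in all titled GFP- arrays and at least 17.0-fold (odor) and 18.0-fold (vehicle) lower there. Of the other lists, 6 of 9 sustentacular genes fell in odor and 5 in vehicle pools, and in both treatments 6 of 10 genes of immature OSNs and 3 of 8 of basal cells fell. Of 9 genes in the Bowman gland list only Ltf and Sox9 passed, and both stand in another list too, Ltf among the neutrophil genes and Sox9 among the tuft cell genes. Of 12 mature OSN genes 5 rose in odor and 3 in vehicle pools, and of 9 genes of ciliated respiratory cells 4 and 2 rose. The leukocyte difference moves with every fraction difference below, and its part in them was not tested.

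The titled GFP- fraction had less signal for each of the 8 genes, with odor and with vehicle, and every titled GFP- array lay below every titled GFP+ array. Of all features, 7.46% had the 8 titled GFP- arrays entirely below the 8 titled GFP+ arrays. Within odor pools 10.3% of features had titled GFP- arrays wholly below and 14.2% wholly above the titled GFP+ arrays, and within vehicle pools these shares were 11.1% and 12.3%. By limma with Benjamini-Hochberg adjustment over all features, 8 of 8 genes passed as lower at an adjusted p under 0.05 in each treatment. Of all features 9.98% were called lower and 12.2% higher in odor pools, 9.82% lower and 7.05% higher in vehicle pools, and 8.3% lower in both. Scaling changes these shares: centring each array on the median of all tested features gave 9658 higher and 1534 lower calls in odor pools and 12456 higher and 1529 lower calls in vehicle pools, with the 8 genes still called lower. The median difference of the 8 genes was -2.67 in odor and -3.54 in vehicle pools, against 0.14 and 0.13 over all features tested. In bulk fractions, fewer cells of a type and less RNA per cell cannot be told apart.

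In titled GFP- arrays all 8 genes were below background, defined on each array as the 95th percentile of 23 control probe sets graded by GC content (6.87 to 7.41). Of all features, 9506 were likewise below background on all 8 titled GFP- arrays. In titled GFP+ arrays Trpm5, Pou2f3, Foxi1 and Cftr were above background on 8 of 8 arrays, Sh2d7 on 7, Ascl3 on 5, Avil on 1 and Chat on 0. A pattern of below background on all titled GFP- and above on all titled GFP+ arrays held for 1.68% of features. Fold differences are therefore lower bounds, with the dim arrays set at background or at their own signal where that is higher. They compare group means and make no allowance for the spread between pools, so they are bounds in respect of background only. Calls above background and fold bounds both depend on where background is set. With the highest GC-graded probe set in its place, bounds in vehicle pools ran between 1.19-fold and 4.92-fold for 5 genes, with none for Ascl3. With the 95th percentile of the negative control probe sets (9.14 to 10.9), Foxi1 was above background on 4 of 8 titled GFP+ arrays, Trpm5 on 3, Sh2d7 and Cftr on 1 each and the others on 0.

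**Figure D1:**
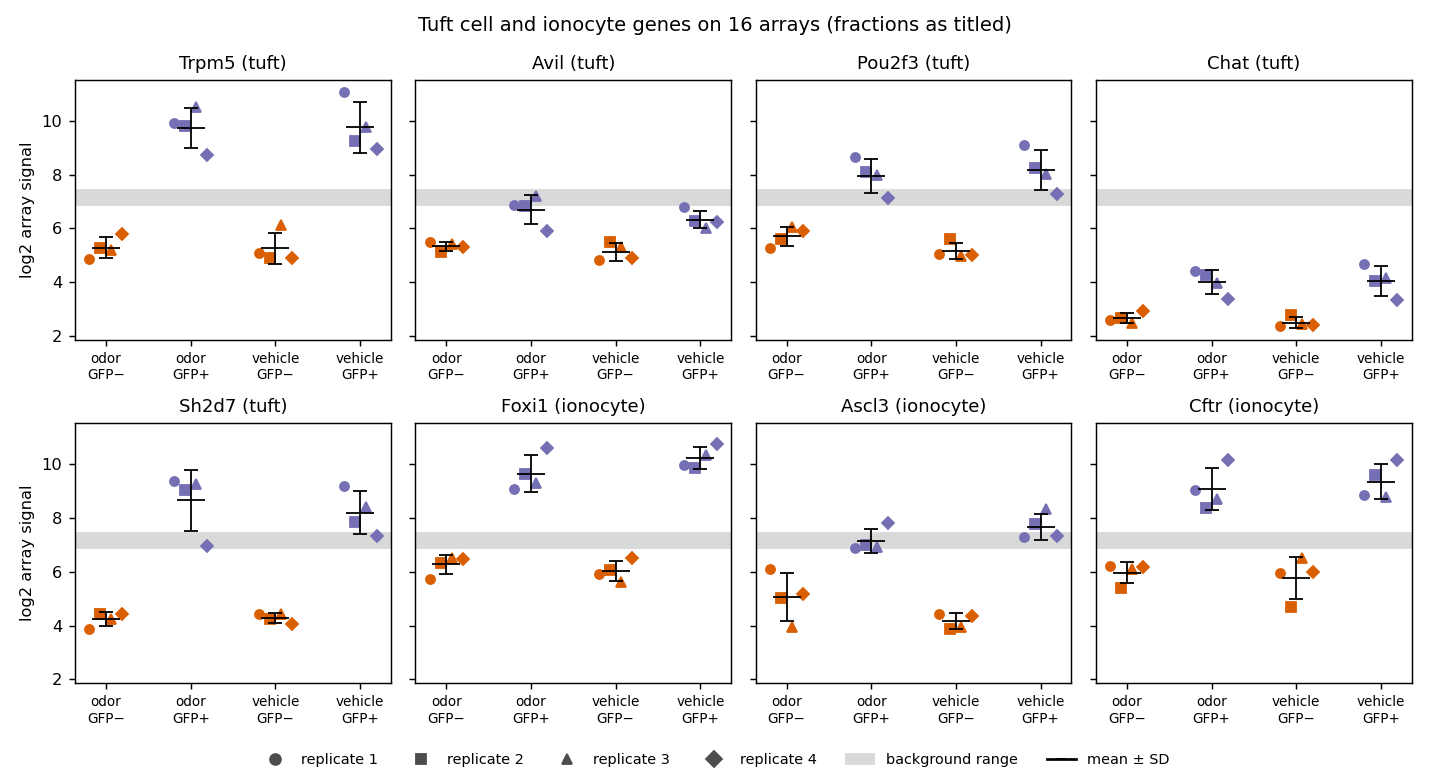
Log2 array signal of the 8 genes on the 16 arrays, in 4 groups of 4 (points, shaped by replicate number), with the group mean ± SD and the grey range of background over arrays (6.87 to 7.41). Titled GFP- arrays lie under the grey band for all 8 genes and below the titled GFP+ arrays of the same gene, while Chat stays under the band in both fractions.

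Promoter sequences are shown for a tuft cell gene and an ionocyte gene with large differences, Trpm5 and Foxi1, and for Chat, the gene whose promoter held matches. RefSeq entries (GRCm38.p6) were found for 7 of the 8 genes, and the 250 bases before each start were searched on both strands for the POU octamer core ATTTGCA, the forkhead motif GTAAACA and the E box CAGCTG, with capitals marking matches.
Trpm5 (chr7:143094643-143094892, minus strand): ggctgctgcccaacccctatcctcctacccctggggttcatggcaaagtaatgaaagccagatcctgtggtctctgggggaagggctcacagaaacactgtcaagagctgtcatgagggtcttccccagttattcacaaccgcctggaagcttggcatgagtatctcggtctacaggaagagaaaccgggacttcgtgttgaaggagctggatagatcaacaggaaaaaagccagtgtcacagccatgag
Foxi1 (chr11:34208090-34208339, minus strand): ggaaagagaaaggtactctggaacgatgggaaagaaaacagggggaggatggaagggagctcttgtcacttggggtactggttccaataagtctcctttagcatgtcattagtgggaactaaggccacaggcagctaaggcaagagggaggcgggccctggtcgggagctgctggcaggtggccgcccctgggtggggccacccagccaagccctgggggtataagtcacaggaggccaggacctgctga
Chat (chr14:32465910-32466159, minus strand): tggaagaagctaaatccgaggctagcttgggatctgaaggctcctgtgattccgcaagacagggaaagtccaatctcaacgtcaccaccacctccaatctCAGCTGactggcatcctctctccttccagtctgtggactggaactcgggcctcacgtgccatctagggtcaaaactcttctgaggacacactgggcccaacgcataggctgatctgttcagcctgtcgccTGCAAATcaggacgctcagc
Chat held an octamer core on the opposite strand (TGCAAAT), starting 20 bases before the gene's start, and an E box starting 150 bases before it. An octamer core was present in 3.57% and an E box in 13% of the 32851 promoters searched, and a forkhead motif in 3.17% of all promoters and 0 of these 7. The GC content of the 7 promoters spanned 34.8% for Ascl3 to 76.4% for Cftr, against a median of 52.4% over all. A match describes letters only, and Chat was below background on every array.

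Pou2f3, the POU-domain factor that tuft cells need, was lower in both titled GFP- groups. Its log2 signals were 5.26, 5.62, 6.04 and 5.91 in odor titled GFP- arrays (replicates 1 to 4), against 8.64, 8.09, 7.99 and 7.12 in odor titled GFP+ arrays. With vehicle they were 5.04, 5.61, 4.97 and 5.03 in titled GFP- arrays, against 9.10, 8.25, 8.03 and 7.28 in titled GFP+ arrays. The groups did not overlap in either treatment, and the titled GFP+ arrays numbered 4 were the lowest of their groups. The fitted difference was -2.25 ± 0.34 in odor and -3.00 ± 0.34 in vehicle pools (SE, limma adjusted p = 1.6e-04 and 7.4e-06), or at least 1.65-fold and 1.98-fold lower in the titled GFP- fraction.

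Trpm5, the calcium-activated cation channel that depolarizes taste and tuft cells, was above background in all titled GFP+ arrays and below it in all titled GFP- arrays. Trpm5 read 4.88, 5.27, 5.19 and 5.81 in odor titled GFP- arrays, against 9.90, 9.81, 10.50 and 8.73 in odor titled GFP+ arrays. In the vehicle pools it read 5.09, 4.90, 6.13 and 4.91 in titled GFP- arrays, against 11.08, 9.25, 9.77 and 8.93 in titled GFP+ arrays. The gap between the fractions was over 2 log2 units at its narrowest. The difference was -4.45 ± 0.44 in odor and -4.50 ± 0.44 in vehicle pools (SE, limma adjusted p = 1.4e-06 and 1.2e-06), at least 5.64-fold and 5.98-fold.

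Sh2d7, which encodes an SH2-domain adaptor protein used as a tuft cell marker, was lower in both titled GFP- groups. It gave 3.88, 4.43, 4.25 and 4.44 in odor titled GFP- arrays, against 9.35, 9.05, 9.23 and 6.96 in odor titled GFP+ arrays. Vehicle pools gave 4.41, 4.26, 4.44 and 4.04 in titled GFP- arrays, against 9.18, 7.84, 8.41 and 7.31 in titled GFP+ arrays. Odor array 4 titled GFP+ stood more than 2 units below the other 3 of its group and was the only titled GFP+ array below background. The difference was -4.40 ± 0.44 in odor and -3.90 ± 0.44 in vehicle pools (SE, limma adjusted p = 2.0e-06 and 7.3e-06), at least 2.65-fold and 2.01-fold. Its titled GFP- signals lay far under background, so the fitted difference is no measure of the fold.

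Avil (advillin, an actin-binding protein of the villin family) and Chat (choline acetyltransferase, which makes acetylcholine) had signals at or under background in both fractions. Avil read 5.49, 5.12, 5.42 and 5.31 in odor titled GFP- arrays, against 6.87, 6.82, 7.19 and 5.92 in odor titled GFP+ arrays. Its vehicle values were 4.82, 5.51, 5.30 and 4.90 in titled GFP- arrays, against 6.79, 6.28, 6.01 and 6.25 in titled GFP+ arrays. Chat read 2.61, 2.66, 2.50 and 2.93 in odor titled GFP- arrays, against 4.41, 4.25, 3.99 and 3.38 in odor titled GFP+ arrays. For vehicle, Chat read 2.37, 2.79, 2.45 and 2.41 in titled GFP- arrays, against 4.68, 4.04, 4.15 and 3.34 in titled GFP+ arrays. The fractions were separate for both genes although the signals were low. Avil differed by -1.36 ± 0.24 in odor and -1.20 ± 0.24 in vehicle pools (SE, limma adjusted p = 6.9e-04 and 0.0021). Chat differed by -1.33 ± 0.25 and -1.55 ± 0.25 (limma adjusted p = 0.0011 and 2.7e-04). No fold is given for either. Centring each array on its median over the features tested brought the Avil difference in vehicle pools to -0.79 (limma adjusted p = 0.00941).

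Of the ionocyte genes, Foxi1, the forkhead factor that specifies the cells, had the highest lower bound of the 8 genes in vehicle pools. The odor pools read 5.74, 6.33, 6.50 and 6.49 in titled GFP- arrays, against 9.05, 9.61, 9.30 and 10.59 in titled GFP+ arrays. The vehicle pools read 5.90, 6.06, 5.60 and 6.50 in titled GFP- arrays, against 9.95, 9.86, 10.33 and 10.72 in titled GFP+ arrays. Here the titled GFP+ arrays numbered 4 were the highest of their groups, the reverse of Pou2f3, Trpm5 and Sh2d7. The difference was -3.37 ± 0.30 in odor and -4.20 ± 0.30 in vehicle pools (SE, limma adjusted p = 5.4e-07 and 4.3e-08), at least 5.28-fold and 8.20-fold.

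Ascl3, a basic helix-loop-helix factor of ionocytes and of some gland duct cells, was dimmer. Odor pools had 6.11, 5.04, 3.93 and 5.18 in titled GFP- arrays, against 6.87, 6.98, 6.92 and 7.79 in titled GFP+ arrays. Vehicle pools had 4.44, 3.86, 3.94 and 4.37 in titled GFP- arrays, against 7.27, 7.76, 8.31 and 7.33 in titled GFP+ arrays. Only 1 of 4 odor titled GFP+ arrays was above background, against 4 of 4 vehicle titled GFP+ arrays. The difference was -2.08 ± 0.36 in odor and -3.51 ± 0.36 in vehicle pools (SE, limma adjusted p = 5.6e-04 and 2.3e-06), at least 1.40-fold in vehicle pools, with no bound above 1 in odor pools.

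Cftr, the chloride and bicarbonate channel mutated in cystic fibrosis, completed the set. Cftr signals with odor were 6.20, 5.39, 6.10 and 6.17 in titled GFP- arrays, against 9.03, 8.38, 8.70 and 10.14 in titled GFP+ arrays. Those with vehicle were 5.94, 4.67, 6.49 and 6.00 in titled GFP- arrays, against 8.84, 9.58, 8.78 and 10.14 in titled GFP+ arrays. It was above background on all titled GFP+ arrays, again highest in the arrays numbered 4. The difference was -3.10 ± 0.42 in odor and -3.56 ± 0.42 in vehicle pools (SE, limma adjusted p = 4.4e-05 and 9.3e-06), at least 3.54-fold and 4.47-fold.

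Odor exposure was compared with vehicle within each fraction. None of the 8 genes passed in either fraction (limma), nor did any of the 19572 features (0% called in either direction). In titled GFP+ arrays 0 of the 8 genes and 2016 of all features had an unadjusted p under 0.05, and in titled GFP- arrays 1 of the 8 and 805 of all features did. The 1 gene was Ascl3 in titled GFP- arrays, at 5.06 ± 0.89 with odor and 4.15 ± 0.29 with vehicle (SD, n = 4 each), a difference of 0.91 with a 95% interval of 0.14 to 1.67 (limma adjusted p = 0.999). All of those signals lay below background.

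The 3 ionocyte genes had negative odor differences in titled GFP+ arrays, and none passed. Foxi1 averaged 9.64 ± 0.68 with odor and 10.21 ± 0.39 with vehicle (SD, n = 4 each), a difference of -0.58 (95% interval -1.21 to 0.06). Ascl3 differed by -0.53 (-1.29 to 0.24) and Cftr by -0.27 (-1.15 to 0.61). The odor and vehicle arrays overlapped for each of the 8 genes in both fractions, while 3.05% of features lay wholly lower and 2.23% wholly higher with odor in titled GFP+ arrays, and 1.46% and 1.51% in titled GFP- arrays. Of the tuft cell genes in titled GFP+ arrays, Trpm5 differed by -0.02 (95% interval -0.94 to 0.90), Pou2f3 by -0.20 (-0.93 to 0.52) and Chat by -0.04 (-0.57 to 0.49). Avil differed by 0.37 (-0.14 to 0.88) and Sh2d7 by 0.46 (-0.48 to 1.40). The intervals reach 1.40 log2 units, so a missing call does not show equal levels.

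The fraction difference itself was not shown to depend on odor for any of the 8 genes. In the test of the difference (odor minus vehicle), 0 of 8 genes and 0% of features passed by limma, with 1 of 8 and 739 of 19572 at an unadjusted p under 0.05. Ascl3 was that gene, with a value of 1.44 ± 0.51 (SE, limma adjusted p = 1). Its titled GFP- signals, all below background, account for 0.91 of that value, so no direction is read from it. Foxi1 stood at 0.83 ± 0.43 and Pou2f3 at 0.75 ± 0.48, and Trpm5 at 0.05 ± 0.62.

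**Figure D2:**
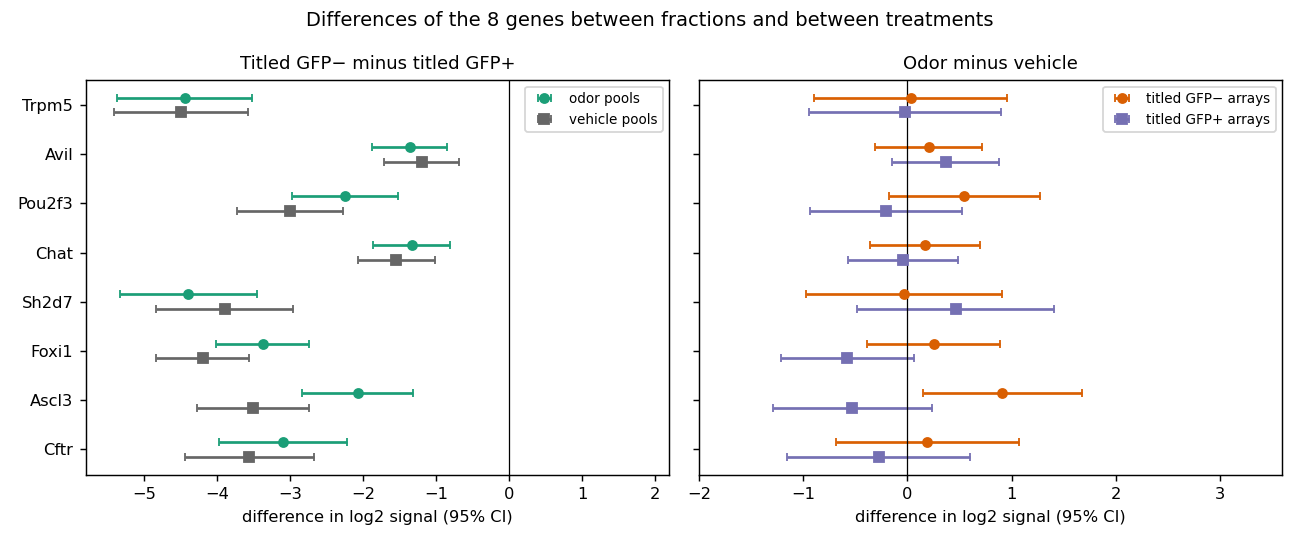
Fitted differences in log2 signal with 95% confidence intervals for the 8 genes. At left are titled GFP- minus titled GFP+ arrays in odor and in vehicle pools, all between -4.50 and -1.20 with intervals under 0, and at right odor minus vehicle in each fraction, between -0.58 and 0.91.

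Within the titled GFP+ fraction the pools numbered 4 stood apart, a pattern noticed in the data. All 5 tuft cell genes were lowest in odor pool 4, and 4 of 5 were lowest in vehicle pool 4, the exception being Avil. In the same arrays 3 of 3 ionocyte genes were highest in odor pool 4 and 2 of 3 in vehicle pool 4, the exception being Ascl3. Vehicle pool 1 had the highest value of all 5 tuft cell genes. The share of all features that were lowest or highest in these pools was not computed. Over all tested features, deviations of odor and vehicle titled GFP+ arrays correlated at 0.506 for number 4 and 0.547 for number 1. The pattern is therefore not shown to be particular to these genes. The spread was wide, with Sh2d7 ranging over 2.39 log2 units in odor pools and Trpm5 over 2.15 in vehicle pools.

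After each value was set against the mean of its treatment, the 10 pairs of tuft cell genes had Pearson correlations of 0.65 to 0.97 over the 8 titled GFP+ arrays. The 15 pairs of a tuft cell with an ionocyte gene had correlations of -0.89 to -0.36, and the 3 ionocyte pairs had 0.25 to 0.67. These points share sorted fractions and arrays, and pools of the same number resembled each other across treatments, so they are not 8 independent samples and no p-value is given. Within vehicle pools alone the contrast was less regular, with 0.07 for Chat with Ascl3, 0.01 for Sh2d7 with Ascl3, -0.05 for Foxi1 with Ascl3 and -0.44 for Ascl3 with Cftr. The 2 arrays in which the first-named gene of a pair lay farthest from its median were then left out. In every mixed pair that gene was the tuft cell gene, and a choice by the other gene was not tried. All 10 tuft pairs, 13 of 15 mixed pairs and 2 of 3 ionocyte pairs kept their sign. The 3 that changed sign were Foxi1 with Cftr (-0.71, against 0.67 over 8 arrays), Pou2f3 with Cftr (0.077, against -0.71) and Trpm5 with Ascl3 (0.0046, against -0.50). Sh2d7 with Foxi1 was -0.20, against -0.86, so these values rest on a few arrays.

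Lists of other cell types moved with this pattern in odor pools, and only in part in vehicle pools. With vehicle the leukocyte list mean was lowest in pool 2, and the sustentacular list mean was nearly as high in pool 1 as in pool 4. The leukocyte list mean in titled GFP+ arrays was 11.18, 10.04, 10.42 and 9.43 in odor pools 1 to 4 and 11.60, 9.92, 10.08 and 9.97 in vehicle pools 1 to 4, so pools 1 were highest, as tuft cell genes were in vehicle pools. The neutrophil list mean was lowest in both pools numbered 4, at 12.93 with odor and 13.36 with vehicle. The sustentacular (supporting cell) list mean was 8.83, 8.76, 8.54 and 9.39 in odor pools 1 to 4, and 9.61, 8.82, 8.78 and 9.65 in vehicle pools 1 to 4, highest in the pools numbered 4, as Foxi1 and Cftr were. The part of these cells in the pool differences was not tested. Without both pools numbered 4, a choice made after the data were seen, 8 of 8 genes still passed in both fraction comparisons.

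**Figure D3:**
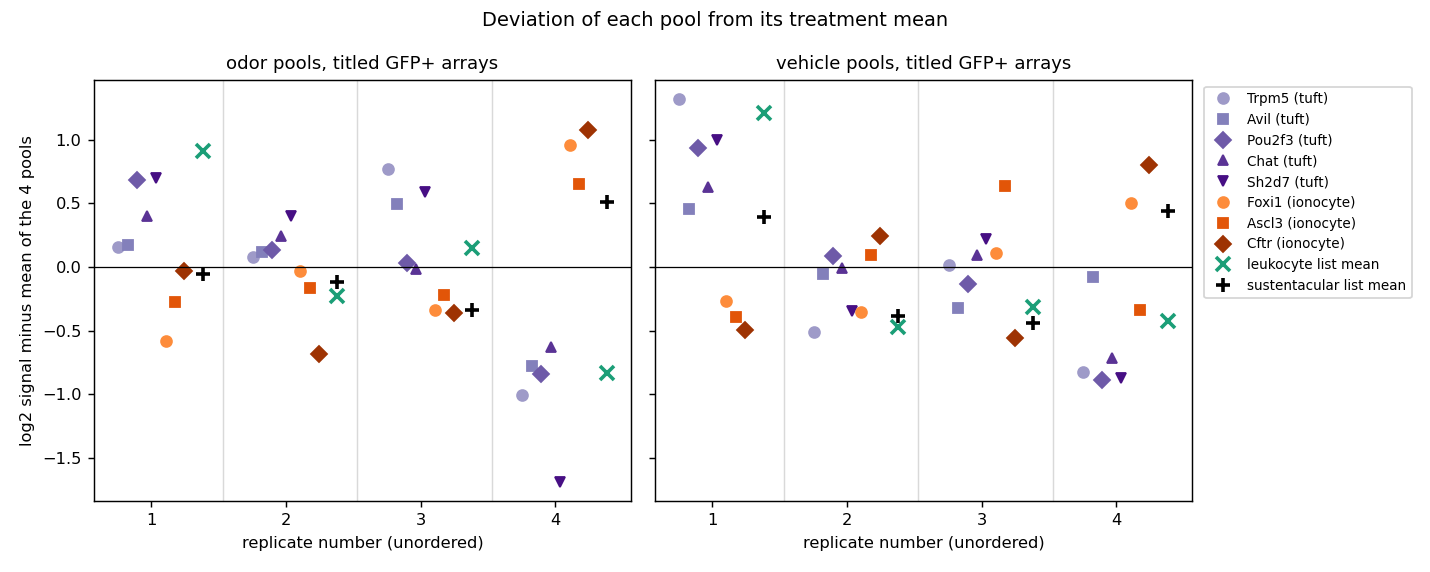
Deviation of each titled GFP+ array from the mean of its treatment, in log2 signal, for the 8 genes and for 2 lists of other cell types, by pool number. In odor pool 4 all 5 tuft cell genes lie below 0 and all 3 ionocyte genes above it, the leukocyte list mean lies below 0 and the sustentacular list mean above it.

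Genes of the same cells that were not among the 8 were examined as lists, chosen with earlier results of these data known. Of 10 measured genes of taste-like sensing, 4 fell and 0 rose in titled GFP- arrays of odor and of vehicle pools, with a median of -0.17 and -0.09. The fitted difference was positive, though not called, for 3 of the 10 in odor and 5 of the 10 in vehicle pools. The genes named below are the 4 that fell. Lymphocytes or leukocytes are mentioned for some genes here and in the next lists. Leukocyte signal was not tested for the other genes either, so they are not shown to be free of it. Rgs13, a regulator of G protein signalling also found in lymphocytes, differed by -4.70 in odor and -4.48 in vehicle pools, at least 8.88-fold and 9.01-fold (limma adjusted p = 4.3e-07 and 6.8e-07). Plcb2, the phospholipase of the taste cascade, differed by -2.18 and -2.25 (limma adjusted p = 0.0038 and 0.0031) and was above background on 3 of 4 titled GFP+ arrays in each treatment. Gnat3, the taste G protein gustducin, differed by -2.0 and -2.02 (limma adjusted p = 7.0e-04 and 6.4e-04), and the bitter receptor Tas2r108 by -0.94 and -0.92 (limma adjusted p = 0.0021 and 0.0026), both below background on all arrays.

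Of 7 measured genes for tuft cell mediators, 5 fell in both treatments and 0 rose, with a median of -1.26 in odor and -1.64 in vehicle pools. Alox5, the 5-lipoxygenase that starts leukotriene synthesis, differed by -5.26 in odor and -5.55 in vehicle pools, and its partner Alox5ap by -4.16 and -4.34 (limma adjusted p of 6.6e-07, 3.6e-07, 7.8e-08 and 4.5e-08). Hpgds, which makes prostaglandin D, differed by -2.38 and -1.99, and Ltc4s, which makes leukotriene C, by -1.26 and -1.42 (limma adjusted p of 3.7e-04 or less). These 4 genes are also active in leukocytes. With titled GFP- signals below background, Alox5 was at least 2.60-fold (odor) and 3.64-fold (vehicle) lower. The bounds were 14.9-fold and 15.4-fold for Alox5ap, and 1.22-fold and 1.06-fold for Hpgds. Alox5 was above background on 3 of 4 odor and 4 of 4 vehicle titled GFP+ arrays, and Hpgds on 3 of 4 in each treatment. Il25, the cytokine of tuft cells, differed by -1.19 and -1.64 (limma adjusted p = 0.0041 and 2.8e-04) with all signals below background. Ltc4s was also below background on every array.

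Of 10 measured genes of tuft cell structure and regulation, 7 were lower in both treatments and 0 higher, with a median of -2.55 in odor and -2.39 in vehicle pools. Lrmp, an endoplasmic reticulum protein also found in lymphocytes, differed by -4.77 and -4.33, the transcription factor Sox9 by -4.12 and -4.43, and Spib, an ETS factor shared with lymphoid cells, by -4.31 and -4.13. The kinase gene Bmx differed by -3.81 and -3.72, and Il17rb, a receptor subunit for IL-25, by -3.74 and -3.55. All 5 had limma adjusted p of 4.9e-05 or less. Their titled GFP- signals lay below background, so the folds are lower bounds, given for odor and then vehicle pools. They were at least 9.31-fold and 6.65-fold for Lrmp, and 9.73-fold and 7.95-fold for Sox9. For Spib they were 1.42-fold and 1.26-fold, for Bmx 1.49-fold and 1.75-fold, and for Il17rb 2.12-fold and 2.08-fold. Spib was above background on 4 of 4 odor and 3 of 4 vehicle titled GFP+ arrays, and Bmx on 3 of 4 and 4 of 4. Il17rb was above it on 3 of 4 titled GFP+ arrays in each treatment. Sox9 also stands in the Bowman gland list.

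Of 15 other ionocyte genes, 7 were lower and 1 higher in odor pools, and 6 lower and 0 higher in vehicle pools, with a median of -0.88 and -0.62. Hepacam2, a cell adhesion molecule of the immunoglobulin family, differed by -5.52 in odor and -5.55 in vehicle pools, at least 19.1-fold and 20.9-fold (limma adjusted p = 7.0e-10 and 6.6e-10). The 1 that rose was Atp6v1g3, a proton pump subunit gene, named after its values were seen, at 5.30 in odor titled GFP- arrays and 4.78 in odor titled GFP+ arrays, all below background (limma adjusted p = 0.044). With pools as a block, or without any 1 of the 4 odor pools, 0 of these tuft cell and ionocyte genes outside the 8 were called higher in odor pools. Stap1, a signalling adaptor also found in lymphocytes, differed by -4.24 and -5.0, and the proton pump subunit gene Atp6v0d2 by -2.19 and -2.68. Stap1 was at least 4.94-fold (odor) and 6.53-fold (vehicle) lower. Atp6v0d2 was above background on 1 of 4 odor and 2 of 4 vehicle titled GFP+ arrays. Its bound was 1.04-fold in vehicle pools, with none above 1 in odor pools. Coch (cochlin, a secreted extracellular matrix protein) averaged 11.17 in odor titled GFP- arrays against 13.44 in odor titled GFP+ arrays, and was above background in all 16. Its difference was -2.27 in both treatments, while Moxd1, a monooxygenase gene, differed by -1.10 and -1.41 (limma adjusted p of 8.1e-04 or less for these 4 genes). Moxd1 was at least 1.44-fold (odor) and 1.72-fold (vehicle) lower.

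**Figure D4:**
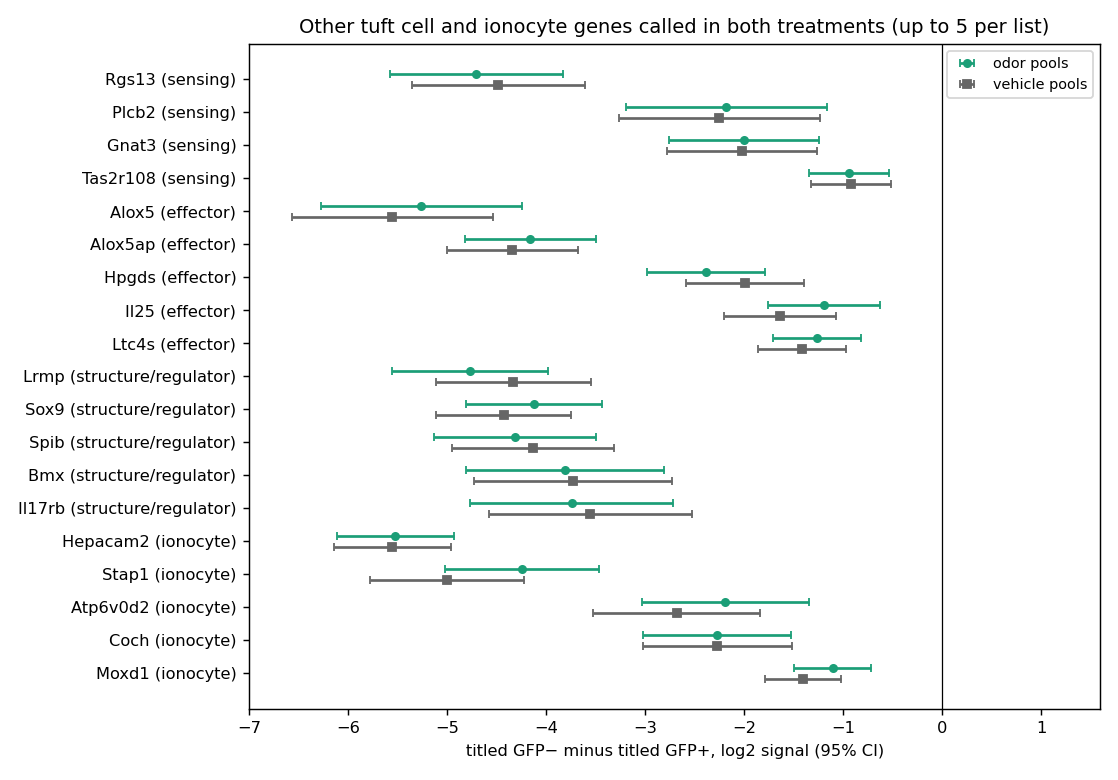
Differences of titled GFP- minus titled GFP+ arrays in log2 signal, with 95% confidence intervals, for the 19 other tuft cell and ionocyte genes called in both treatments, up to 5 per list. All lie between -5.55 and -0.92, and the values in odor and vehicle pools have overlapping intervals for each gene.

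Profiles across the 16 arrays were compared by the root-mean-square difference after each was centred on its own mean, among 8746 other features above background on all titled GFP+ arrays. The fraction difference was left in each profile, so features with a fraction difference of like size are near by construction. These distances largely restate the fraction differences and add no separate evidence for them. Nearest to Trpm5 were Bin2 at 0.31, Alox5ap at 0.35 and 1810046K07Rik at 0.40 log2 units, where the median candidate lay at 2.40. Nearest to Pou2f3 were Gadd45g (0.33), Sh3bp5 (0.38) and Bst1 (0.38). The nearest to Foxi1 were Calb2 (calretinin) at 0.37, the olfactory receptor Olfr399 at 0.40 and Dpysl3 at 0.44, and those to Cftr were Pam (0.50), Muc20 (0.53) and the keratin Krt18 (0.55). The titled GFP- values of Trpm5, Pou2f3, Foxi1 and Cftr in these profiles lay below background. Calb2 and Dpysl3, the latter from the list of immature OSN genes, were above background on every titled GFP- array, unlike Foxi1. Pam was below it on 1 of 8 titled GFP- arrays, and the other neighbours named on all 8.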

How the data were processed

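Per the labels, 24 mice in 8 pools gave 16 RNA samples of 50 to 100 ng, which were hybridised to Clariom S arrays as biotinylated cRNA. The deposited values were taken as log2 signals from their range (1.77 to 19.3); they came from Affymetrix Expression Console, per the submitters' processing notes, and its version, background correction, normalization and genome build are not given in the sources used here. The number of arrays limits the precision. Samples were grouped by title. The 28846 entries per array included 19572 features with 1 gene symbol in the platform annotation, which were tested.

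A limma model (limma 3.58.1, R 4.3.3) with 1 mean for each of 4 groups gave 5 comparisons, with two-sided moderated tests and Benjamini-Hochberg adjustment over all features at 0.05. The SE values and 95% intervals come from this model. Its script was tested on simulated data. The 8 genes, the other lists and the rule for named genes were chosen with earlier results of these data known. The rule named all 8 genes, up to 5 genes per tuft cell or ionocyte list called in both fraction comparisons, and 3 nearest profiles. Some listed genes were not analysed here, and Irag2 was read under its older symbol Lrmp. The written design set background at the 95th percentile of the 5222 negative controls (9.14 to 10.9) unless scripts of an earlier analysis were at hand, and none were. The 95th percentile of the 23 GC-graded probe sets was used instead, because it gives the range that the earlier analysis stated. That departure was made after both had been seen, and it raises the number of genes called above background and the number of fold bounds. With the negative controls no gene would be above background on all titled GFP+ arrays, so no nearest profiles would be named.

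Fractions that share a pool share its mice, so their numbers pair them, and their deviations from group means correlated at 0.0957 to 0.337. Odor and vehicle arrays of the same number correlated at 0.178 to 0.379 in titled GFP- and 0.147 to 0.547 in titled GFP+ arrays, so these were taken as paired too. Both pairings entered only the replicate block, an alternative fit. The main model had no such term, so the SE, intervals and adjusted p in the Results ignore the pairing. In vehicle pools the block took the limma adjusted p of Trpm5 from 1.2e-06 to 4.2e-05 and of Pou2f3 from 7.4e-06 to 1.7e-04. Alternatives were a replicate block, renewed quantile normalization, 2 centrings, a filter on dim features, an intensity trend, fits of fewer groups, and leaving out each pool.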

Additional observations from a re-analysis of the deposited data

Results flagged for a closer look

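Among the 32 groups of 4 arrays formed by the 8 genes, 5 held a value far from the other 3, where chance flags about 1 in 20 groups. In odor titled GFP+ arrays, pool 4 had a Sh2d7 signal of 6.96, far under the other 3, and an Ascl3 signal of 7.79, far over them. In vehicle titled GFP- arrays, Trpm5 was high in pool 3 at 6.13 and Pou2f3 was high in pool 2 at 5.61. In odor titled GFP- arrays, Cftr was low in pool 2 at 5.39. All of these but the Ascl3 value lay below background. No difference between treatments in the fraction difference passed for any of the 8 genes.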

How the results depend on the processing

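All 8 genes stayed lower in the titled GFP- fraction at an adjusted p under 0.05 in both treatments in 15 of 16 alternatives, the replicate block (8 of 8) and the fits without 1 pool included. The filter on dim features left 6 genes, all called, because Avil and Chat are not tested there. The largest adjusted p was 0.0326, for Avil in vehicle pools without vehicle replicate 1. The replicate block changed no call of these genes; in each odor against vehicle comparison it gave 1 feature among all, against 0 without it. Scaling moved the median of all features in vehicle pools to 0.54 (centred on tested features) and -0.14 (centred on receptors), against 0.13 as deposited, and the features called higher to 12456 and 342, against 1380. In odor pools these centrings gave 9658 and 343, against 2385. Fits without 1 pool gave 681 to 1766 higher calls in vehicle and 1238 to 2270 in odor pools, with 681, 856 and 770 without vehicle replicate 1, 2 and 3, and 1238 and 1449 without odor replicate 1 and 3. Other listed genes called lower ranged from 15 to 24 (22 as reported) in vehicle and 16 to 26 (23) in odor pools, and those called higher from 0 to 9 (0) and 0 to 4 (1). With negative controls as background, 2 genes kept a bound in vehicle pools (Trpm5 at least 1.11-fold and Foxi1 at least 1.53-fold) and 0 in odor pools.

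Small values that did not pass changed sign, and the cause was not tested. The odor effect on the fraction difference of Trpm5 (0.05) was -0.10 after quantile normalization, -0.051 and -0.14 after centring on tested features and receptors, and -0.30 without both pools numbered 4. It ranged from -0.46 to 0.34 without 1 pool, and that of Chat (0.21) from -0.081 to 0.42. In titled GFP- arrays the odor difference of Trpm5 (0.03) was -0.024 after quantile normalization, -0.26 without both pools numbered 4 and -0.14 to 0.32 without 1 pool. Sh2d7 (-0.03) was 0.036 centred on receptors and -0.12 to 0.089 without 1 pool, and Cftr (0.19) was -0.18 to 0.43 without 1 pool. In titled GFP+ arrays Trpm5 (-0.02) was 0.081 after quantile normalization, 0.083 and 0.24 after the 2 centrings, 0.038 without both pools numbered 4 and -0.30 to 0.42 without 1 pool. Pou2f3 (-0.20) was 0.054 centred on receptors and -0.50 to 0.11 without 1 pool. Chat (-0.04) was 0.064 and 0.22 after the centrings and -0.28 to 0.17 without 1 pool.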
